A study of Mus musculus with 8 samples.

Results

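Amino acid transporters are described here as a set of 34 named genes of the solute carrier families SLC1, SLC3, SLC6, SLC7, SLC15, SLC16, SLC36, SLC38 and SLC43. A gene was kept where its value reached 1 in 2 or more libraries, and 32 of the 34 did so, among 16432 genes that passed the same filter and 49671 listed. Slc7a10 reached 1.13 in 1 sham SFA-EAA library and was at 0 in all 4 TAC libraries, and Slc7a11, the cystine and glutamate exchanger, did not exceed 0.0145 in any library, so both were left out.

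Cells take up most amino acids through these carriers. Sodium-coupled carriers of the SLC1, SLC6 and SLC38 families can concentrate their substrates inside the cell, while the light chains of the SLC7 family pair with the heavy chain encoded by Slc3a2 and exchange 1 amino acid for another across the membrane. In heart muscle the carriers supply amino acids for protein synthesis and oxidation and bring in taurine, an abundant free amino acid of cardiomyocytes.

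The hearts came from male C57BL/6N mice, 8 weeks of age when the study began, and polyadenylated RNA of their left ventricles was sequenced. Their food was a low fat diet named SFA, or one named SFA-EAA that had 93.5% of its casein exchanged for free essential amino acids. Surgery was either sham or transverse aortic constriction (TAC), in which a ligature makes the ventricle pump against a raised pressure, and RNA was taken 4 weeks later. Each of the 4 combinations (sham SFA, TAC SFA, sham SFA-EAA, TAC SFA-EAA) had 2 libraries, and no mutant or transgene is given for any. Whether a group's 2 libraries are 2 animals is not stated, and the spread behind each p-value may therefore be technical.

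Library sums of the deposited values ranged between 5136441 and 6298743, with 14202 to 15844 genes at 1 or more. Summed cardiomyocyte markers were 422916.1 and 423656.2 in sham SFA and 350340.1 and 372694.2 in TAC SFA, without overlap. They were 371025.6 and 389265.6 in sham SFA-EAA and 336452.7 and 417973.8 in TAC SFA-EAA. The atrial genes Myl7, Myl4 and Sln stood far higher in sham SFA replicate 1 and TAC SFA replicate 2 than in the rest. Myl7 was 621 and 322 there and between 1.28 and 43.0 in the other 6 libraries. Nppa, also read as an atrial marker, differed: it was 1299.5 in sham SFA replicate 1 and 1013.0 to 1045.6 in the other sham libraries. In TAC SFA it was 10346.3 and 20405.6. TAC SFA-EAA replicate 1 was most like sham SFA replicate 2 (Spearman rho 0.9812 across genes), not its own partner. Base composition differed along the diets, since a gene's deviation from its mean rose with its GC content in the 4 SFA libraries and TAC SFA-EAA replicate 1 (rho 0.203 to 0.331 across 16394 genes) and fell with it in the other 3 (-0.511 to -0.272). Values after a correction for GC content, or without single libraries, are given beside some of the results they change.

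Per kilobase of gene length, the scale on which genes can be compared with each other, Slc38a2 was the most abundant carrier in every library. It encodes a sodium-coupled carrier of small neutral amino acids (system A). Its level averaged 260.3 per kb, from 191 to 356, and made up 27.2% to 38.3% of the summed per-kb level of the 32 genes. Slc43a3, which encodes a purine nucleobase carrier related to the large neutral amino acid carriers, averaged 88.5 per kb (65.9 to 108). Slc38a10 averaged 71.9 per kb (58.4 to 85.9), and the ranges of these last 2 genes overlapped.

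Slc38a10 was second in both sham SFA libraries and Slc43a3 in the other 6. Slc38a3, a glutamine carrier, averaged 56.8 per kb, Slc6a6, the taurine carrier, 54.1, and Slc3a2, the shared heavy chain, 49.4, and their ranges overlapped. The first 5 genes of a library held 63.3% to 70.4% of the summed per-kb level. At the low end Slc1a2, a glutamate carrier known mainly from brain, averaged 0.251 per kb. The levels of the 32 genes thus spanned about 3 orders of magnitude, with a single carrier well above the rest.

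**Figure D1:**
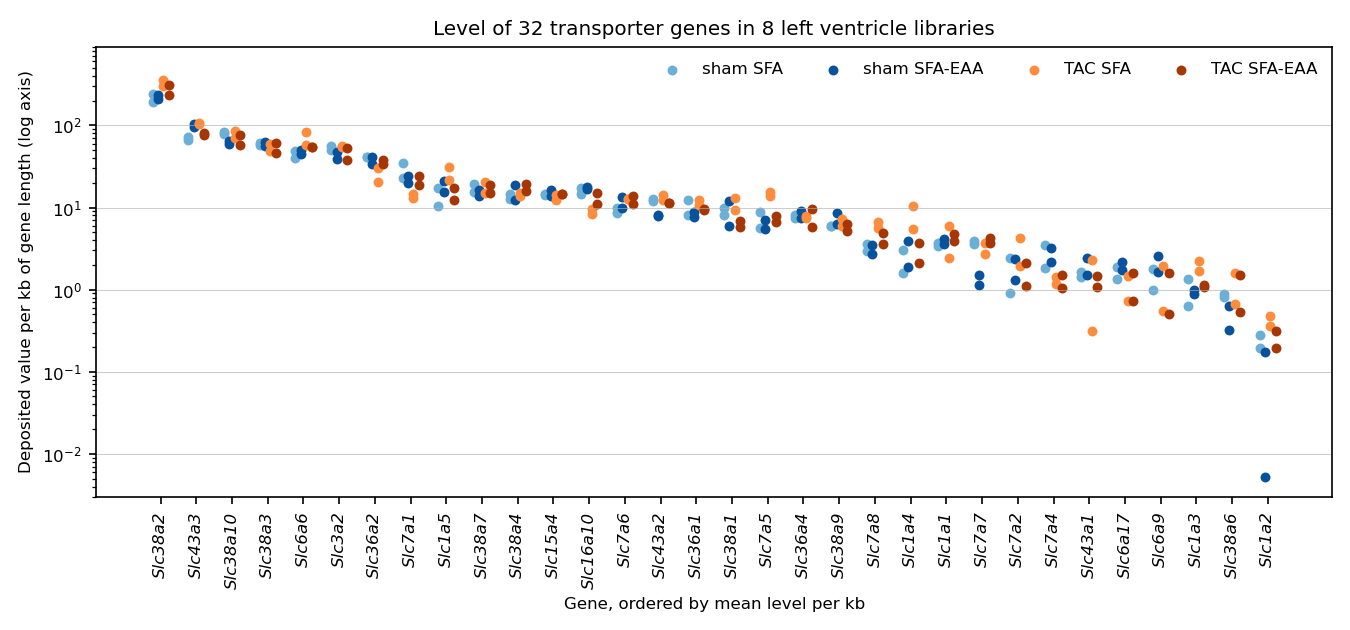
Level of each of the 32 transporter genes per kilobase of gene length (log axis) in the 8 libraries, ordered by mean, with points coloured by group. Slc38a2 lies at 191 to 356 per kb, above every other gene in all libraries, and Slc1a2 is last with a mean of 0.251.

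Several members are neighbours on a chromosome, with positions given in GRCm38 as the deposited table lists them. Slc38a1 (chr15:96571418-96642913), Slc38a2 (chr15:96687394-96699698) and Slc38a4 (chr15:96994823-97055956) lie in a row on the minus strand. Slc43a1 (chr2:84838850-84863594) lies before Slc43a3 (chr2:84936579-84958509) on the plus strand. Slc36a2 (chr11:55158470-55185077, minus strand) lies beside Slc36a1 (chr11:55204350-55236330, plus strand). Exons of Slc1a1, Slc7a7, Slc7a4 and Slc6a9 share bases with those of an expressed gene on the opposite strand (4430402I18Rik, Oxa1l, P2rx6 and B4galt2). Since the use of strand in counting is not given, the values of these 4 members are uncertain. Neighbours of a family did not share a level: Slc43a1 averaged 1.52 per kb against 88.5 for Slc43a3.

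The promoters of 4 members are shown because the results turn on them: Slc38a2, the most abundant carrier, Slc7a1 and Slc16a10, whose levels were lowest in TAC SFA, and Slc7a7, the one member whose windows held an amino acid response motif. Each is the 250 bases before a start site given by RefSeq (GRCm38.p6), read 5′ to 3′ on the gene's strand. The windows are Slc38a2 at chr15:96699729-96699978, Slc7a1 at chr5:148399905-148400154, Slc16a10 at chr10:40142255-40142504 and Slc7a7 at chr14:54417945-54418194, all on the minus strand. Capitals mark a match to TGATGNAAN, the composite element bound by C/EBP and ATF factors. The first 3 windows hold none and are in lower case throughout.
Slc38a2: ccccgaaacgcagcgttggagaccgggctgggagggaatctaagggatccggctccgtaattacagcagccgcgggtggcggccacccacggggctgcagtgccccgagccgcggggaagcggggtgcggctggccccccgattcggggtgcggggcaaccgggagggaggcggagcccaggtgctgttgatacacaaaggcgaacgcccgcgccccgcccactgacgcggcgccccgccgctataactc
Slc7a1: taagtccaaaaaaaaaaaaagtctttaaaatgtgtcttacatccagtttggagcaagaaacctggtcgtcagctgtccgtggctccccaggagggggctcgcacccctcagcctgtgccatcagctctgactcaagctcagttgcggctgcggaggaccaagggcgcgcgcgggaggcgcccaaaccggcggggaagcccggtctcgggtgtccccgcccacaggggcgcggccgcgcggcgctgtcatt
Slc16a10: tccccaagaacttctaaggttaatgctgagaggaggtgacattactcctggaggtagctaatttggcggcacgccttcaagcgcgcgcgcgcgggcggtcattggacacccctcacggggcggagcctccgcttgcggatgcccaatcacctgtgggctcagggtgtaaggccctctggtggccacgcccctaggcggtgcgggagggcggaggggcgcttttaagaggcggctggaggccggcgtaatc
Slc7a7: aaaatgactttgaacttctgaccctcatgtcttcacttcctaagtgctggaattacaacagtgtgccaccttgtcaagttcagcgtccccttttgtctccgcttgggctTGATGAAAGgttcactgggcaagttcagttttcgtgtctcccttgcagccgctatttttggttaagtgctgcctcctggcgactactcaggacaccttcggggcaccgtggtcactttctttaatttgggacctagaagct
Both strands were searched for TGATGNAAN and for the E-box CACGTG, which overlapped in no window of a member. TGATGNAAN was found in 1129 of all 32851 windows of this length (3.44%). Among 35 windows of 23 members it was found in 2, both of Slc7a7. In the window shown it starts at position -141 from the start site. Other windows of Slc7a7 held no match. The start site of the window shown lies upstream of the gene as listed (chr14:54369442-54417780). CACGTG was found in 1978 windows (6.02%) and in 3 windows of members, those of Slc36a1, Slc38a7 and Slc43a1. The Slc38a2 window had a GC content of 72%, that of Slc7a1 62.4%, that of Slc16a10 64.4% and that of Slc7a7 48.8%. A match describes these letters only.

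In TAC against sham hearts under SFA, 1 of the 32 transporters passed the test: Slc43a3 rose. Carriers of small neutral amino acids and taurine (Slc38a2, Slc6a6) and of large neutral amino acids (Slc7a5) had higher values in both TAC SFA libraries than in either sham SFA library. The arginine carrier Slc7a1, the aromatic amino acid carrier Slc16a10 and the proton-coupled carrier Slc36a2 had lower ones. None of these 6 passed the threshold on the values as deposited. Groups without overlap were no more frequent among the members (15 of 32, 46.9%) than among all genes (47.4%). The call was an adjusted p below 0.05 by limma over all 16432 genes, where 205 genes (1.25%) were called, 137 higher (0.834%) and 68 lower (0.414%).

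Slc43a3 had values of 319.6 and 294 in sham SFA, 431 and 467 in sham SFA-EAA, 483 and 461 in TAC SFA, and 344 and 362 in TAC SFA-EAA. The SFA hearts were thus low after sham and high after TAC, the SFA-EAA hearts the other way round, and the groups of each diet did not overlap. Under SFA its log2 fold change, on the scale of log2(value + 1) as for all fold changes here, was 0.62 (SE 0.12, 95% interval 0.36 to 0.89, limma adjusted p = 0.0462), a 1.54-fold rise. In sham SFA the mean was 306.8 ± 18.0 and in TAC SFA 472 ± 15.5 (SD, n = 2 each).

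The Slc43a3 call rested on few libraries. It was kept without filter, after quantile scaling, after GC correction (0.55, limma adjusted p = 0.0100) and without either TAC SFA-EAA library. It was lost without sham SFA replicate 1 or 2 (limma adjusted p = 0.233 and 0.420), without TAC SFA replicate 1 or 2 (0.176 and 0.314) and without sham SFA-EAA replicate 1 or 2 (0.129 and 0.130). It was also lost with a pseudocount of 0.25 (0.0506) and with the replicate number as a block (0.104), while its log2 fold change stayed between 0.55 and 0.71 throughout.

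Markers of cell types were measured beside it. Slc43a3 is known from endothelial cells, whose 8 summed markers, none at 0 in all libraries, lay at 3971.2 to 4088.3 in sham SFA and 3735.9 to 4080.7 in TAC SFA, with 0 of 8 called by limma. The 8 fibroblast markers summed to 4847.8 to 5510.7 in sham SFA and 7987.9 to 11882.9 in TAC SFA, with 2 called higher and 5 after GC correction. The 9 macrophage markers, none at 0 in all libraries, summed to 932.8 to 1221.0 in sham SFA and 1430.9 to 1647.3 in TAC SFA, with 9 of 9 positive, a median of 0.559 and 0 called by limma (5 at an unadjusted p below 0.05). The 8 cardiomyocyte markers summed lower in TAC SFA (350340.1 to 372694.2) than in sham SFA (422916.1 to 423656.2). Of these 8, 7 were negative, with a median of -0.217, 0 called by limma and 1 lower after GC correction. The part of these differences in the results was not tested. In bulk tissue, fewer cells of a type and less RNA per cell cannot be told apart.

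Slc7a1, the main carrier of arginine and lysine in many cells, had values of 403 and 264 in sham SFA, 231 and 279 in sham SFA-EAA, 149.9 and 166 in TAC SFA, and 219.6 and 277 in TAC SFA-EAA. The 2 TAC SFA libraries were the lowest of the 8, and sham SFA replicate 1 the highest. Its log2 fold change under SFA was -1.04 (SE 0.21, 95% interval -1.53 to -0.56, limma adjusted p = 0.0581). After GC correction it was -1.11 and passed (limma adjusted p = 0.00609). Sham SFA replicate 1 is one of the libraries with high atrial genes; leaving out 1 library at a time moved the fold change between -1.35 and -0.74.

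Slc16a10, which carries aromatic amino acids without sodium, had values of 108 and 127 in sham SFA, 132 and 124 in sham SFA-EAA, 70.2 and 60.7 in TAC SFA, and 111 and 80.6 in TAC SFA-EAA. TAC libraries were lower than sham libraries of the same diet in both diets, without overlap. The log2 fold change was -0.84 under SFA (SE 0.20, limma adjusted p = 0.0937) and -0.43 under SFA-EAA (SE 0.20, limma adjusted p = 0.596). Under SFA it passed after GC correction (-0.91, limma adjusted p = 0.0200), and on the deposited values without TAC SFA-EAA replicate 1 (limma adjusted p = 0.0458) or replicate 2 (0.0447), where 2.34% and 2.33% of all genes were called.

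Slc38a2 had values of 1127 and 884 in sham SFA, 975 and 1097 in sham SFA-EAA, 1387 and 1647 in TAC SFA, and 1088 and 1428 in TAC SFA-EAA. Both TAC SFA libraries lay above every sham library, whereas 1 TAC SFA-EAA library fell within the sham range. Under SFA the log2 fold change was 0.60 (SE 0.17, limma adjusted p = 0.154), and 0.56 after GC correction (limma adjusted p = 0.0335). Slc6a6, the taurine carrier, had values of 413 and 343, 380.4 and 418, 485 and 702, and 459 and 461 in the same order of groups. Its highest value came from TAC SFA replicate 2, the TAC library with high atrial genes. So did those of Slc38a2, Slc7a5, Slc1a5 and Slc1a4, while those of Slc43a3 and Slc7a8 came from TAC SFA replicate 1. The log2 fold change of Slc6a6 under SFA was 0.63 (SE 0.18, limma adjusted p = 0.146), or 0.57 after GC correction (limma adjusted p = 0.0443).

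**Figure D2:**
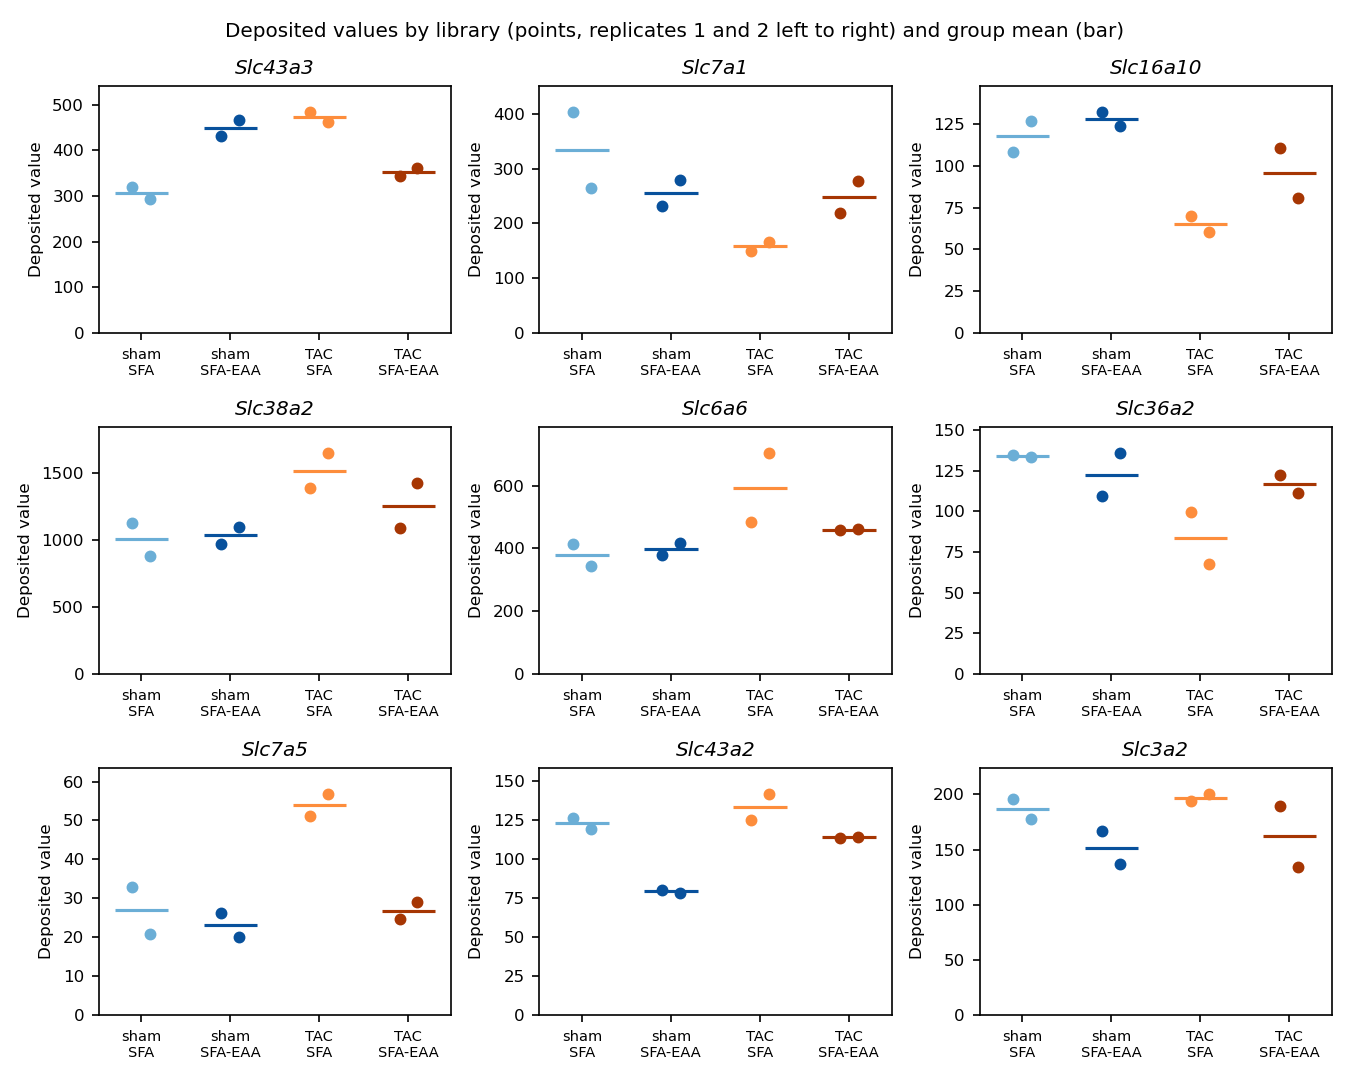
Deposited value of 9 transporter genes in each of the 8 libraries, by group, with bars at the group means (n = 2). Slc43a3 is high in sham SFA-EAA and TAC SFA (431 to 483) and lower in the other 4 libraries (294 to 362), and Slc7a1 is lowest in TAC SFA (149.9 and 166).

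Slc7a5, the light chain that exchanges leucine and other large neutral amino acids, had values of 32.9 and 20.9 in sham SFA, 26.3 and 20.1 in sham SFA-EAA, 51.2 and 56.7 in TAC SFA, and 24.7 and 29.0 in TAC SFA-EAA. The 2 TAC SFA libraries stood above the other 6. The log2 fold change under SFA was 1.01 (SE 0.30, 95% interval 0.32 to 1.69, limma adjusted p = 0.170). Its heavy chain Slc3a2 had values of 196 and 178, 167 and 136, 194 and 199.9, and 189.8 and 134 in the same order, and under SFA its log2 fold change was 0.07 (SE 0.19), or -0.006 after GC correction. A second light chain of leucine transport, Slc7a8, had values of 14.7 and 11.9, 11.1 and 14.1, 26.6 and 22.6, and 19.5 and 14.5. It was higher in TAC than in sham libraries within each diet, with a log2 fold change of 0.85 under SFA (SE 0.34, limma adjusted p = 0.323).

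All 5 SLC1 genes had positive fold changes under SFA, with a median of 0.93, and 0 of 5 passed. The smallest, 0.11 for Slc1a1, moved between -0.51 and 0.79 as single libraries were left out. The exchanger of small neutral amino acids and glutamine Slc1a5 had values of 71.5 and 43.7 in sham SFA, 87.3 and 64.7 in sham SFA-EAA, 90.1 and 128 in TAC SFA, and 71.8 and 52.0 in TAC SFA-EAA. Its log2 fold change under SFA was 0.93 (SE 0.30, limma adjusted p = 0.209), and 1.67 for its relative Slc1a4 (SE 0.52, limma adjusted p = 0.187), which rests on values of 6.20 to 40.7. The 8 SLC38 genes had a median of 0.11, with 6 positive. The 3 cationic carriers had a median of -0.85, that of Slc7a4, whose values were only 4.11 to 13.9. Slc7a2 was the only positive one, and moved between -0.30 and 1.56 as single libraries were left out. The proton-coupled and lysosomal group had 3 of 4 negative, led by Slc36a2 (134 and 133 in sham SFA, 99.8 and 67.5 in TAC SFA, log2 fold change -0.70, SE 0.21, limma adjusted p = 0.174).

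Counted over all members, 11 of 32 (34.4%) had an unadjusted p below 0.05 under SFA, against 13.4% of all genes tested. The members were chosen with earlier results of these data known, so such shares do not test the set. The libraries of TAC and sham did not overlap for 15 of 32 (46.9%), against 47.4% of all genes. Of the members 11 (34.4%) were higher and 4 (12.5%) lower without overlap, against 24.3% and 23.1% of all genes. The median fold change was 0.114 for the members and 0.011 for all genes, and the median size without sign 0.506 against 0.266. After GC correction 6 of 32 members passed, Slc43a3, Slc38a2 and Slc6a6 higher and Slc7a1, Slc16a10 and Slc36a2 lower, against 881 genes (5.36%), 364 higher (2.22%) and 517 lower (3.15%). The direction of the 6 was the same with and without the correction, while 2 of the other members changed sign.

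Under SFA-EAA, 0 of 32 transporters passed for TAC against sham by limma, against 2 genes (0.0122%), and 3 had an unadjusted p below 0.05, against 8.57% of all genes. These were Slc7a7, Slc43a2 and Slc43a3. Slc7a7, a light chain that exports cationic amino acids, had values of 13.0 and 12.0 in sham SFA, 4.97 and 3.72 in sham SFA-EAA, 12.3 and 9.03 in TAC SFA, and 12.3 and 14.2 in TAC SFA-EAA. The sham SFA-EAA libraries were the lowest, and the fold change under SFA-EAA was 1.42 (SE 0.38, limma adjusted p = 0.390). Slc7a7 is known from macrophages, whose 9 summed markers were likewise lowest in sham SFA-EAA (719.1 to 815.9). They lay at 932.8 to 1221.0 in sham SFA, 1191.2 to 1264.9 in TAC SFA-EAA and 1430.9 to 1647.3 in TAC SFA. Slc7a7 did not follow them in TAC SFA, where its values overlapped those of sham SFA. For the diet in sham, 7 of the 9 markers had negative fold changes and 2 positive ones. The part of these markers was not tested. Its exons share 232 bases with those of Oxa1l, which has a mean value of 516.

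Slc43a2, which carries leucine and other large neutral amino acids by facilitated diffusion, had values of 127 and 119 in sham SFA, 80.5 and 78.5 in sham SFA-EAA, 125 and 142 in TAC SFA, and 114 and 114 in TAC SFA-EAA. The sham SFA-EAA libraries were the lowest, apart from the other 6, and TAC against sham gave 0.52 under SFA-EAA (SE 0.15, limma adjusted p = 0.428) and 0.11 under SFA (SE 0.15). Slc43a3 had a fold change of -0.35 under SFA-EAA (SE 0.12, limma adjusted p = 0.486). The libraries of the groups did not overlap for 13 of 32 members (40.6%), against 36.6% of all genes. After GC correction 0 of 32 passed, against 34 genes, 27 of them higher (0.164%) and 7 lower (0.0426%).

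**Figure D3:**
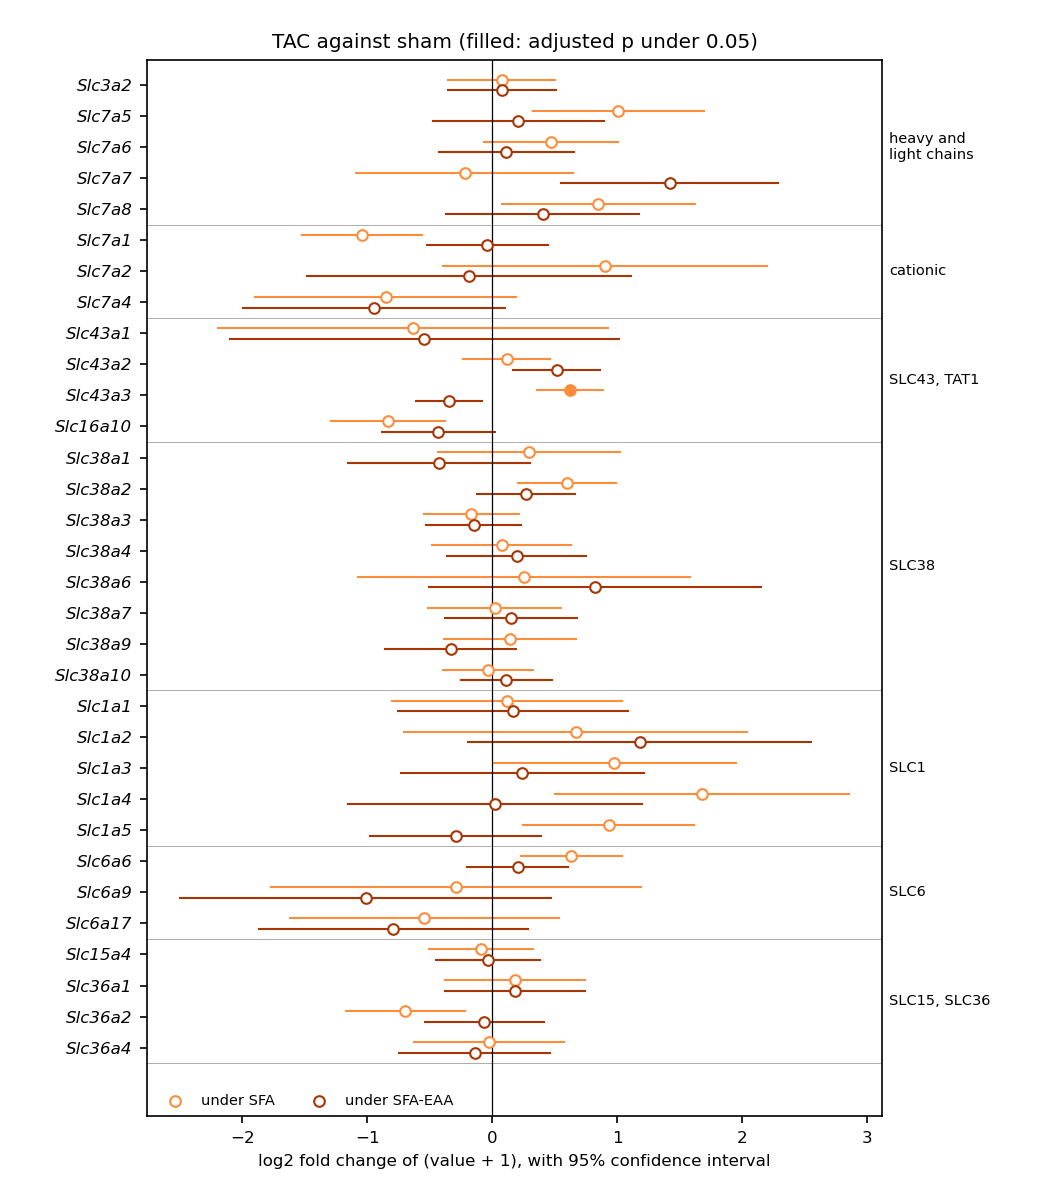
Log2 fold change of TAC against sham with its 95% interval for the 32 transporters under SFA and under SFA-EAA, filled where the limma adjusted p was below 0.05. Only Slc43a3 under SFA is filled, at 0.62, and it lies at -0.35 under SFA-EAA.

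Averaged over the diets, TAC against sham called 0 of 32 transporters by limma, against 347 genes (2.11%), and 10 members (31.2%) had an unadjusted p below 0.05, against 15.3% of all genes. Slc16a10 had the smallest p, with -0.63 (SE 0.14, limma adjusted p = 0.0607), followed by Slc7a1 (-0.54, SE 0.15, limma adjusted p = 0.120) and Slc38a2 (0.43, SE 0.12, limma adjusted p = 0.124). After GC correction these 3 passed, at -0.70, -0.60 and 0.43 (limma adjusted p = 0.0118, 0.0198 and 0.0203), against 1056 genes (6.43%), 453 higher and 603 lower in place of 227 and 120. Slc16a10 also passed without TAC SFA-EAA replicate 1 (-0.75, limma adjusted p = 0.0309), where 3.43% of all genes were called.

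For the diet in sham hearts, 0 of 32 transporters passed by limma, as did 0 of all genes (0%), and 4 members had an unadjusted p below 0.05, against 14.8% of all genes. Slc43a3 was higher with SFA-EAA (0.55, SE 0.12, limma adjusted p = 0.267), and Slc43a2 (-0.62, SE 0.15) and Slc7a7 (-1.34, SE 0.38) were lower, with the same adjusted p. No GC-corrected fold change is given for these genes here. Over all genes the diet fold change in sham fell with GC content (Spearman rho -0.51). The Slc43a3 difference passed without TAC SFA-EAA replicate 1 (limma adjusted p = 0.0423) or replicate 2 (0.0411), libraries that enter only through the shared spread, where 2.62% and 2.84% of all genes were called. Slc38a10 had values of 497 and 527 in sham SFA, 377 and 419.5 in sham SFA-EAA, 452 and 552 in TAC SFA, and 492 and 375 in TAC SFA-EAA. Its fold change of -0.36 in sham (SE 0.16, limma adjusted p = 0.336) turned to 0.07 after GC correction, so no direction is given for it. The groups did not overlap for 8 of 32 members (25%), against 55.2% of all genes, with 2 members higher (27.6% of all genes) and 6 lower (27.6%).

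For the diet after TAC, 0 of 32 passed by limma, against 8 genes (0.0487%), 6 of them lower (0.0365%), and 8 members (25%) had an unadjusted p below 0.05, against 15.1% of all genes. In this comparison 22 of 32 fold changes were negative, with a median of -0.182 against -0.030 for all genes; after GC correction 18 of 32 were negative, the median was -0.058, and 0 of 32 passed, against 333 genes (2.03%), 214 higher (1.3%) and 119 lower (0.724%). Slc43a3 (-0.42, SE 0.12, limma adjusted p = 0.171), Slc7a5 (-0.99, SE 0.30, limma adjusted p = 0.203) and Slc1a5 (-0.80, SE 0.30, limma adjusted p = 0.269) were lower with SFA-EAA. Slc7a1 was higher (0.64, SE 0.21, limma adjusted p = 0.227). No GC-corrected fold change is given for these genes here. Over all genes the diet fold change after TAC fell with GC content (Spearman rho -0.40). The diet comparison after TAC shares the TAC SFA libraries with TAC against sham under SFA. The opposite signs of Slc43a3, Slc7a5, Slc1a5 and Slc7a1 in the 2 comparisons therefore rest in part on the same 2 samples. The groups did not overlap for 17 of 32 members (53.1%), against 42.8% of all genes, with 5 members higher (21.7% of all genes) and 12 lower (21.1%).

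Averaged over the operations, SFA-EAA against SFA called 0 of 32 transporters by limma, against 199 genes (1.21%), 80 higher and 119 lower (309 and 172 after GC correction, 9 and 33 after quantile scaling), and 4 members had an unadjusted p below 0.05, against 23.2% of all genes. Slc43a2 came nearest, with -0.42 (SE 0.11, limma adjusted p = 0.0809), but -0.25 after GC correction (limma adjusted p = 0.251). Without TAC SFA-EAA replicate 1, Slc43a2 (limma adjusted p = 0.0299), Slc3a2 (-0.43, limma adjusted p = 0.0342) and Slc38a10 (limma adjusted p = 0.0347) passed, while 3043 of all genes (18.5%) were called in that setting. Slc7a5 (-0.59, SE 0.21) and Slc16a10 (0.33, SE 0.14) had limma adjusted p of 0.151 and 0.209. The values of Slc43a1, a further carrier of leucine, overlapped between the diets in sham and after TAC, and those of Slc38a9 overlapped after TAC but were higher with SFA-EAA in sham. Slc43a1 had values of 9.47 and 8.22, 8.55 and 13.8, 1.81 and 13.2, and 6.16 and 8.29, and Slc38a9, the lysosomal arginine sensor of the mTORC1 pathway, had 52.6 and 52.4, 75.5 and 55.5, 63.6 and 53.0, and 46.2 and 56.5, in the same order of groups as above.

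**Figure D4:**
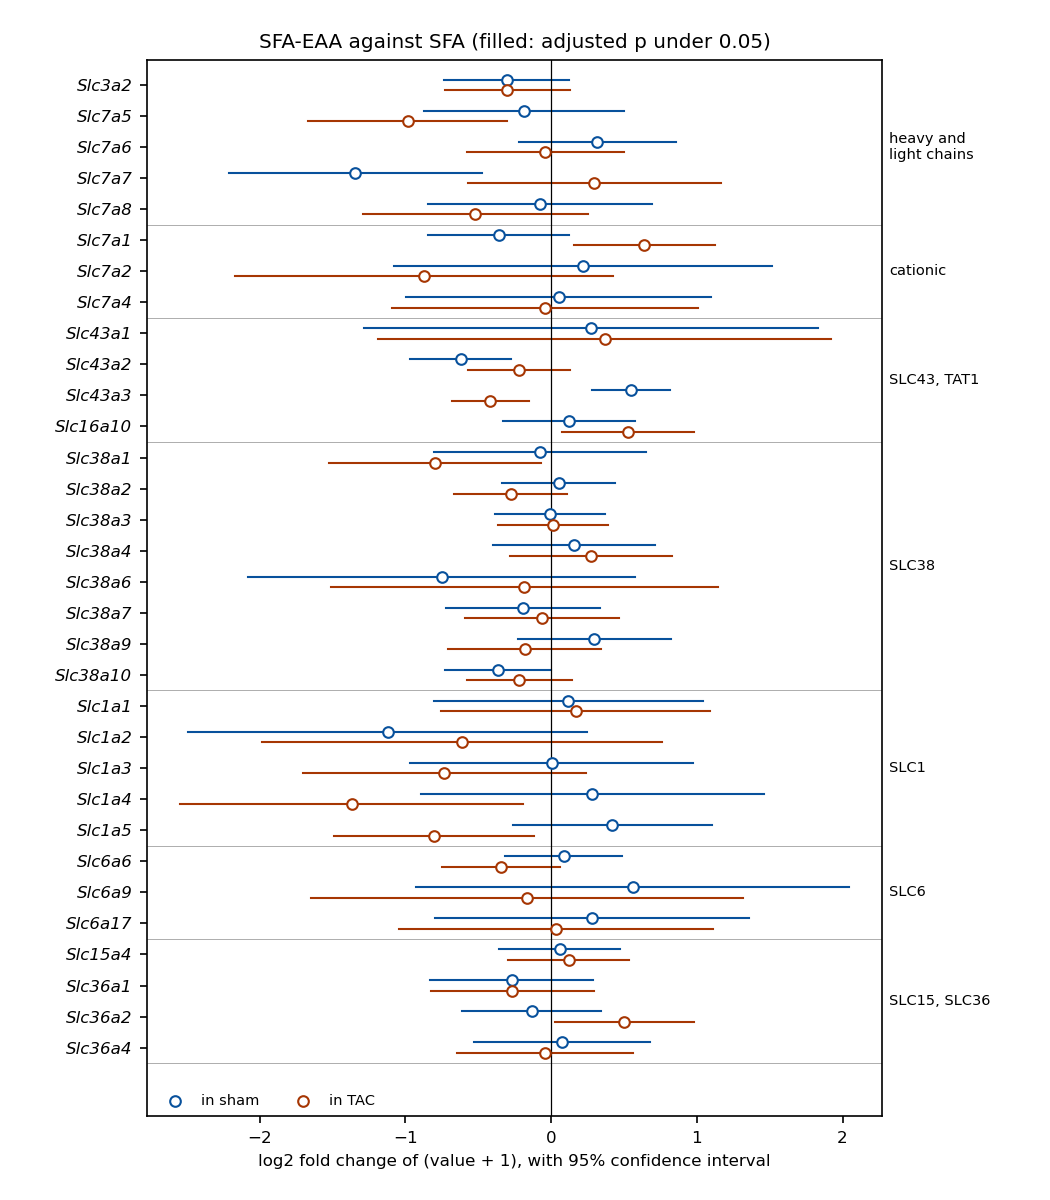
Log2 fold change of SFA-EAA against SFA with its 95% interval for the 32 transporters in sham and in TAC hearts; a filled point would mark a limma adjusted p below 0.05. No point is filled, and Slc43a3 lies at 0.55 in sham and -0.42 in TAC.

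Diet fold changes moved with GC content over all genes. Across 16394 genes the fold change of SFA-EAA against SFA, averaged over operations, fell with GC content (Spearman rho -0.54), while across the 32 members, which are not independent replicates, rho was -0.05 as deposited and 0.44 after correction. For TAC against sham under SFA rho was -0.00 across all genes and -0.23 across the members. Among the members, the correction turned the diet fold change of Slc38a10, whose GC content is 57.6%, from -0.29 to 0.12 averaged over operations.

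**Figure D5:**
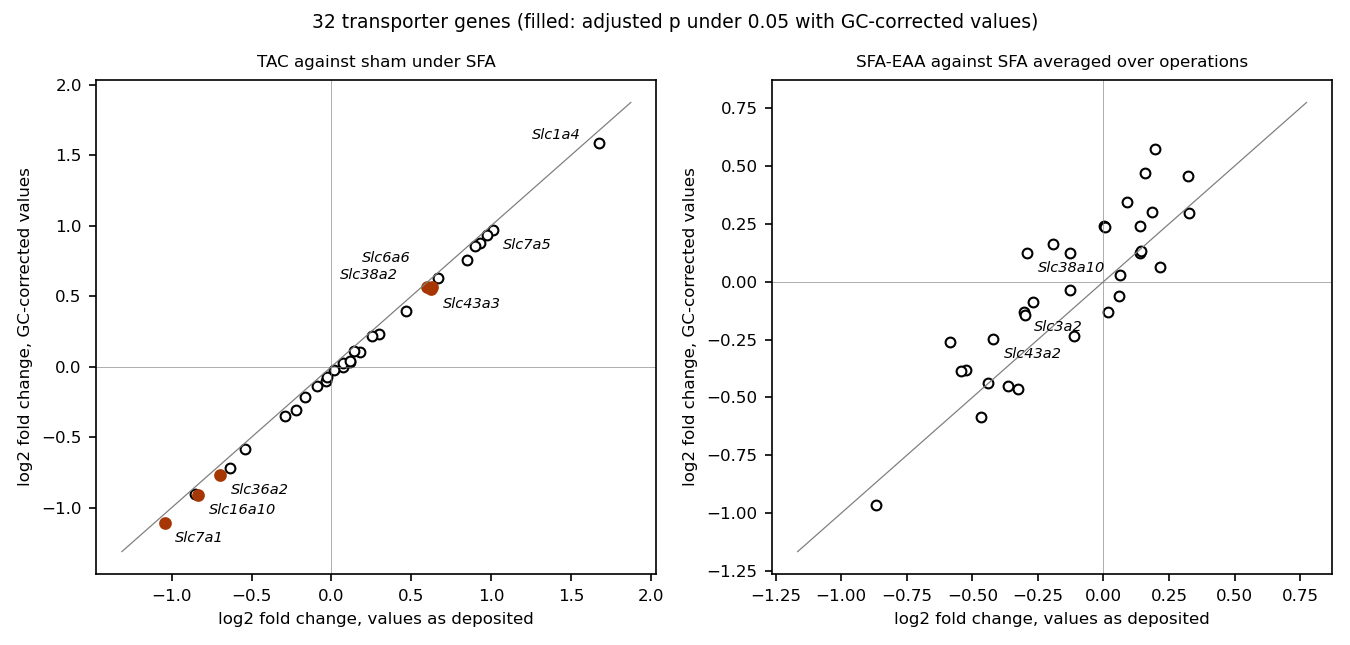
Log2 fold change of each of the 32 transporters after GC correction (vertical) against that on the values as deposited (horizontal), for TAC against sham under SFA (left) and SFA-EAA against SFA averaged over operations (right), with the line of equal values and filled points for a limma adjusted p below 0.05 after correction. On the left Slc43a3 moves from 0.62 to 0.55; on the right Slc38a10 moves from -0.29 to 0.12.

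The test of whether the TAC response differed between the diets called 0 of 32 transporters by limma and 0 of all genes (0%), with 4 members (12.5%) at an unadjusted p below 0.05, against 5.49% of all genes. Slc43a3 had the largest ratio of difference to error among the members, -0.97 (SE 0.17, 95% interval -1.34 to -0.59), with an unadjusted p of 0.000241 and a limma adjusted p of 0.698. Slc7a1 (1.00, SE 0.30), Slc7a7 (1.64, SE 0.54) and Slc1a5 (-1.23, SE 0.43) followed, with limma adjusted p of 0.850, 0.862 and 0.862.

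The 32 transporters summed to 4392.8 and 3828.7 in sham SFA, 3944.9 and 4187.1 in sham SFA-EAA, 4560.6 and 5190.0 in TAC SFA, and 4164.6 and 4293.7 in TAC SFA-EAA. The 2 TAC SFA libraries were the highest of the 8. Without Slc38a2 the sums were 3266.0 and 2944.6, 2970.0 and 3089.7, 3173.6 and 3542.6, and 3076.9 and 2865.7, and the sham and TAC libraries of SFA then overlapped.

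Related genes outside the set were read from lists. Of 22 other plasma membrane amino acid transporters 9 were tested and 0 were called by limma in any comparison, with 0 at an unadjusted p below 0.05; together they summed to 1.8 to 11.2 in a library. Of a list of mitochondrial carriers, most but not all of them of amino acids, 14 of 15 were tested. On the deposited values 0 were called, with 0 to 3 at an unadjusted p below 0.05 in a comparison. After GC correction 2 of the list passed under SFA, where 5.36% of all genes were called. They were Slc25a22 (-0.98, limma adjusted p = 0.0437), a glutamate carrier, and Slc25a39 (-0.41, limma adjusted p = 0.0307), not known as an amino acid carrier. The same 2 passed averaged over diets, where 6.43% of all genes were called. No call was made on the deposited values for 6 of 9 lysosomal and vesicular transporters tested (0 called, 0 to 2 unadjusted) and for all 12 trafficking regulators (0 called, 1 to 3 unadjusted). Cd44, a cell surface partner of transporters, was the nearest, at 1.20 under SFA (SE 0.31, limma adjusted p = 0.116) and 1.17 after GC correction (limma adjusted p = 0.0269). After GC correction Cd44 and Laptm4b (-0.33, limma adjusted p = 0.0349) passed averaged over diets, and Bsg, a partner of monocarboxylate carriers, passed under SFA (-0.48, limma adjusted p = 0.0245) and for the diet after TAC (0.47, limma adjusted p = 0.0491).

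Of 24 tested genes of the amino acid response and the factor ATF4, which acts on many transporter genes, 1 (4.17%) passed under SFA, against 1.25% of all genes. Gpt2, the mitochondrial alanine transaminase, fell, from 212 and 195 in sham SFA to 129 and 102 in TAC SFA (-0.82, SE 0.16, limma adjusted p = 0.0478). Atf4 itself had values of 425 and 407 in sham SFA and 541 and 561 in TAC SFA (0.40, SE 0.11, limma adjusted p = 0.129). Averaged over diets Atf3, a stress-induced factor, rose (1.27, SE 0.17, limma adjusted p = 0.00809) and Gpt2 fell (-0.76, SE 0.11, limma adjusted p = 0.0122). For the diet after TAC 18 of 24 had negative fold changes, with a median of -0.327 against -0.030 for all genes, and 0 passed by limma. At an unadjusted p below 0.05 there were 8 of 24 (33.3%), against 15.1% of all genes. The diet in sham also gave a count of 8 of 24, against 14.8% of all genes, with a median of -0.034. Equal counts need not hold the same genes. This list too was chosen with earlier results of these data known, so its shares do not test it. Over all genes the diet fold change after TAC fell with GC content (Spearman rho -0.40). No median of the 24 after GC correction is given, and 0 of them passed with it for the diet after TAC. After GC correction Atf3 also passed under SFA-EAA (1.77, limma adjusted p = 0.00824), Atf5 averaged over diets (0.32, limma adjusted p = 0.0398) and Gpt2 for the diet averaged over operations (0.44, limma adjusted p = 0.0459).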

How the data were processed

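Left ventricle polyadenylated RNA of 8 libraries was made into stranded libraries, per the labels' protocols, and grouped by operation and diet as labelled. The submitters' processing notes name STAR 2.5, GRCm38 and edgeR. How reads were counted, with which annotation, filter or strand setting, is not given in the sources used here. The deposited table holds, for every gene and library, a signal that the authors had normalized, together with the gene length used for levels per kb. It has no fixed total and is not in whole numbers, so no count test was run and the depth in reads is unknown.

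The model (limma-trend, limma 3.58.1 in R 4.3.3, log2(value + 1)) took the 16432 genes at 1 or more in 2 or more libraries, gave each group 1 mean and let the 4 groups share their spread. Fold changes of low genes are understated on that scale. All p-values are two-sided, and Benjamini-Hochberg adjustment ran over all genes, separately in 7 comparisons, at a threshold of 0.05. An exact permutation of 2 against 2 libraries cannot go below p = 0.333. The scripts were tested on simulated data.

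The members and lists were chosen with earlier results of these data known. Values in every library are given for members called in a comparison, the 4 with the smallest p-values in each comparison and a fixed panel (Slc3a2, Slc7a5, Slc7a8, Slc43a1, Slc43a2, Slc38a2, Slc1a5, Slc6a6, Slc7a1, Slc7a11, Slc38a9). The alternatives were a pseudocount of 0.25, no filter, quantile scaling, the replicate number as a block, a GC correction (a loess curve of span 0.3 per library, on the GC content of reference transcripts, known for all 32 members), the last 2 together, a fit to only the 4 libraries of a comparison, and omission of libraries. A block with crossed numbers was added after seeing the data. Promoter windows come from RefSeq (GRCm38.p6) and matched 23 of 32 members. Coordinates equalled those of GENCODE M21 for 27 of 32 members. Python 3.11.15, pandas 2.3.3, scipy 1.17.1 and matplotlib 3.10.9 made the tables and figures.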

Additional observations from a re-analysis of the deposited data

How the results depend on the processing

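With 2 libraries a group, 1 library can make or end a call, and values near 1 allow no firm fold change. Leaving out 1 library at a time gave these lowest and highest counts. For transporters they were 0 and 2 (TAC under SFA), 0 and 0 (TAC under SFA-EAA), 0 and 1 (diet in sham), 0 and 0 (diet after TAC), 0 and 0 (interaction), 0 and 1 (TAC averaged) and 0 and 3 (diet averaged). For all genes they were 0 and 385, 0 and 0, 0 and 466, 0 and 1395, 0 and 0, 24 and 563, and 0 and 3043. The counts of 385, 1395, 563 and 3043 came without TAC SFA-EAA replicate 1, that of 466 without TAC SFA-EAA replicate 2 and that of 24 without TAC SFA replicate 2. A group left with 1 library is assumed to vary like the others, and the cause of these shifts was not tested.

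For TAC under SFA, transporters called were 0 with a pseudocount of 0.25, with either block, on the 4 libraries alone and without both libraries of high atrial genes, 6 after GC correction and 4 with block and GC correction. All genes called there were 881 after GC correction and 687 with the block added, and 0 on the 4 libraries alone or without both atrial libraries. For TAC averaged, 3 transporters were called after GC correction and 3 with the block added, against 1056 and 855 genes, and genes called were 56 without filter and 0 without both atrial libraries.

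For TAC under SFA-EAA, genes called were 34 after GC correction, 21 with the block added and 0 with a pseudocount of 0.25, no filter, quantile scaling, the 4 libraries alone or without both atrial libraries. For the diet after TAC they were 333, 198 and 0 with a pseudocount of 0.25, no filter, the 4 libraries alone or without both atrial libraries. For the diet in sham 2 were called after GC correction, and for the interaction 3 with block and GC correction. For the diet averaged they were 481 after GC correction, 331 with the block added, 57 with a pseudocount of 0.25, 42 after quantile scaling, and 0 without filter or without both atrial libraries.

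Same-numbered libraries did not deviate together (r from -0.18 to 0.023 over the 6 pairs of groups). Whether equal numbers mark libraries that were handled together is not stated and was not tested. The replicate block left 0 transporters and 96 genes called for TAC under SFA, 147 genes for TAC averaged, and 0 for TAC under SFA-EAA, the diet after TAC and the diet averaged. With crossed numbers, 0 transporters and 184 genes were called for TAC under SFA, 3 genes for TAC under SFA-EAA and 31 for the diet after TAC. Only a part of the transporter fold changes printed with the comparisons was followed through all alternatives. That of Slc1a1 under SFA was not in this part, and it reversed as single libraries were left out (-0.51 to 0.79). Among the followed fold changes, those of 2 genes reversed with GC correction, with or without the block. Slc38a10 turned to 0.067 for the diet in sham and 0.12 averaged, and Slc3a2 to -0.006 for TAC under SFA. Of the other values of the followed fold changes under the alternatives, 560 kept their direction and side of the threshold. A further 22 passed the threshold anew and 11, all of Slc43a3 under SFA, lost it. Over all 32 members and 7 comparisons, 23 of 224 fold changes changed sign with GC correction, 9 of them for the diet in sham and 0 of them called on the deposited values. Leaving out a single library changed the sign of 13 to 24 of the 224, quantile scaling that of 12, and omission of both atrial libraries that of 34.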
